A study of Mus musculus with 4 samples.

Results

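The nuclear genes for the subunits of oxidative phosphorylation were followed through the cell types of mouse popliteal vessels. Members were all genes whose symbol begins with Nduf plus a subunit letter and a number, Uqcr, Cox4 to Cox8, or Atp5, with symbols marked as pseudogenes (1 symbol) left out. This gave 80 genes out of 32286 gene features: 35 of complex I, 8 of complex III, 20 of complex IV and 17 of complex V. Ndufa4 and Ndufa4l2 carry complex I names but were counted with complex IV, where Ndufa4 is known to sit. The rule reads gene symbols and takes no measured value, although it was written with earlier results of these data known.

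Oxidative phosphorylation makes most of the ATP of resting cells. Complexes I and III pass electrons along the inner mitochondrial membrane and pump protons, complex IV (cytochrome c oxidase) hands the electrons to oxygen, and complex V, the ATP synthase, uses the proton gradient to make ATP. Most subunits are encoded in the nucleus and a few in mitochondrial DNA, and several complex IV subunits have isoforms that replace each other by tissue or by oxygen supply. Vascular muscle is contractile and needs ATP for the myosin and ion pumps, and the swap of Ndufa4 for Ndufa4l2, a gene induced by hypoxia-inducible factor, has been described as a means of lowering oxygen use.

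The series measured RNA in single cells from popliteal vessels of adult mice that carry the WT1GFPCre allele, a GFP and Cre fusion driven by the Wt1 locus, and the Ai9-tdT reporter. All libraries share this genotype, and mice without these alleles were not analysed here. Popliteal lymphatic vessels (PLV) alone made up 2 libraries, each a separate pool of 2 mice whose vessels were digested for 30 min with collagenase I, Dispase II, DNAse and Liberase. The third library, called mixed below, held PLV and blood vessel (BV) cells of 1 pool of 2 mice, digested apart for 60 min in collagenase I and Dispase II alone, tagged with hashtag antibodies and then run together. Vessel, digestion, run and mice therefore differ together between it and the PLV pools, and cells of its vessels were not told apart here.

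After filters, 1909 cells remained in PLV pool 1, 516 in PLV pool 2 and 994 in the mixed library. Their molecules, counted by unique molecular identifier (UMI), came to 9577642, 3390010 and 7770796. No cell barcode was shared among them (0 in each pair). Cells were clustered within each library without the members, and clusters were called "X-like" from marker genes. The 6 classes found in all 3 libraries had these cell numbers in PLV pool 1, PLV pool 2 and the mixed library: 423, 110 and 307 muscle-like, 44, 27 and 59 pericyte-like, 386, 87 and 277 fibroblast-like, 296, 65 and 174 blood endothelial-like, 192, 67 and 53 lymphatic endothelial-like, and 234, 53 and 38 Schwann-like cells. The defining markers of muscle summed to 36827, 36599 and 43923 UMIs per 1000000 UMIs of the sum (CPM) in the muscle-like sums and to 109.4, 88.6 and 145.6 CPM in the fibroblast-like sums. Pericyte markers summed to 12157, 9778 and 5543 CPM in the pericyte-like class, which also held muscle markers at 8025, 8764 and 13954 CPM. UMIs were summed per library and class, since cells of a library are not replicates, and the 18 sums were compared with edgeR's quasi-likelihood test with the library as a block; a gene passed at a Benjamini-Hochberg adjusted p under 0.05 over all genes tested. Classes were cut from the same cells they describe, so these p-values take the grouping as given. In the lists below the values follow the order PLV pool 1, PLV pool 2, mixed library.

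The members were a larger share of the RNA in muscle-like cells than in any of the other 5 classes, in each of the 3 libraries. They made up 3.13%, 2.28% and 2.49% of the muscle-like UMIs, 1.73%, 1.54% and 2.05% of the pericyte-like UMIs, and 1.35%, 1.15% and 1.63% of the fibroblast-like UMIs. Blood endothelial-like cells held 2.07%, 1.54% and 1.81%, lymphatic endothelial-like cells 2.03%, 1.40% and 1.65%, and Schwann-like cells 1.52%, 1.29% and 1.55%. The means were 2.63% ± 0.445 in muscle-like, 1.81% ± 0.264 in blood endothelial-like, 1.78% ± 0.258 in pericyte-like, 1.69% ± 0.314 in lymphatic endothelial-like, 1.45% ± 0.146 in Schwann-like and 1.38% ± 0.242 in fibroblast-like cells (SD, n = 3 libraries). In this order of means, blood endothelial-like, pericyte-like and lymphatic endothelial-like levels overlapped from library to library, as did Schwann-like and fibroblast-like levels. The muscle-like to fibroblast-like ratio of the summed share was 2.32, 1.99 and 1.53. The muscle-like class pools kinds of cluster, described below, with unlike shares. The Ano1/Hmcn2 kind held 2.36%, 1.60% and 2.32%, and the Pln/Sorbs2 kind 3.51%, 2.76% and 3.13%. In PLV pool 2 the former was near the 1.54% of pericyte-like and of blood endothelial-like cells. Of the 76 members tested, 68 differed somewhere among the 6 classes, where 65.7% of all genes did, so the number that differed says little about these genes; the direction of the differences is what follows.

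**Figure D1:**
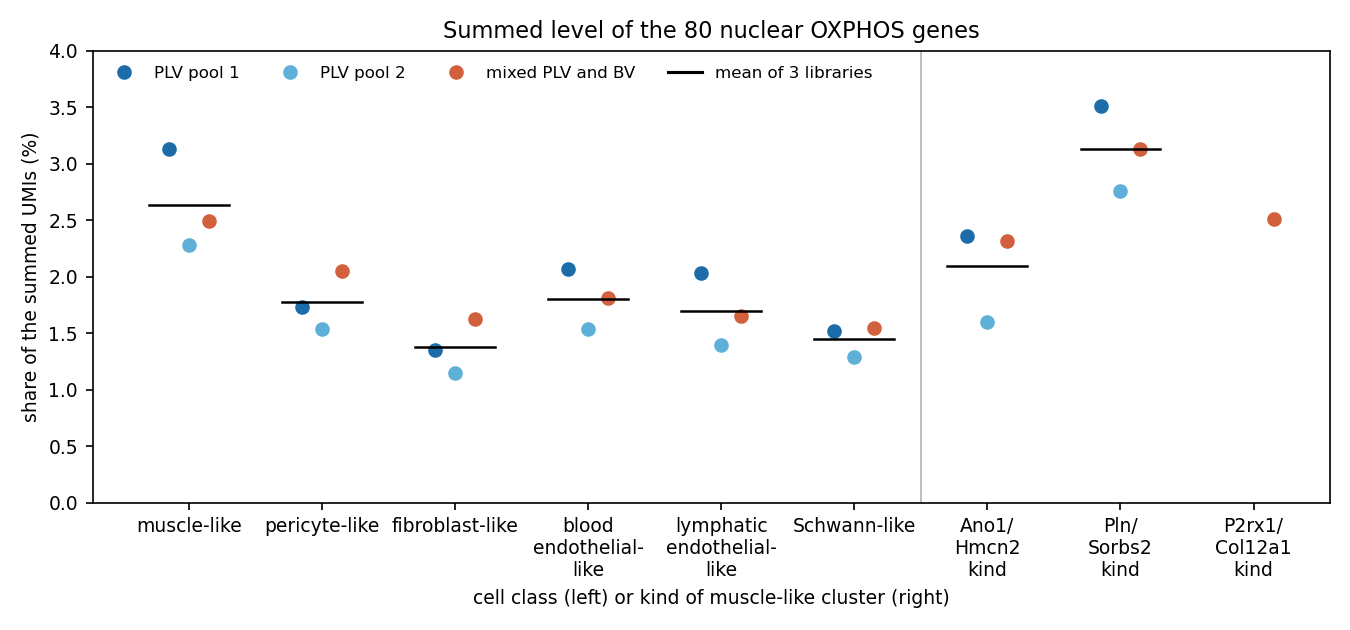
Summed UMIs of the 80 nuclear oxidative phosphorylation genes as a percentage of all UMIs, for the 6 cell classes and the 3 kinds of muscle-like cluster; each point is 1 library and the bar is the mean of 3 libraries, except for the P2rx1/Col12a1 kind, which has 1 library, the mixed one. Muscle-like points lie at 2.28% to 3.13%, above the other classes of the same library, and the Pln/Sorbs2 kind lies at 2.76% to 3.51%, above the Ano1/Hmcn2 kind of the same library.

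Single members followed the summed level unevenly. Of the 78 members with any UMI in the 6 classes, 42 were counted as highest in the muscle-like sum of every library, 3 in the blood endothelial-like sum (Cox5a, Ndufa8 and Ndufc2), 2 in the pericyte-like sum (Cox4i2 and Ndufa4l2), 1 in the lymphatic endothelial-like sum (Cox7a2l) and 1 in the Schwann-like sum (Ndufv2), while for 29 the highest class varied with the library. The 42 include Cox6a2, which had 0 UMIs in both PLV pools and was ranked by the mixed library alone. The most abundant members were Cox6c at 1944, 1319 and 1565 CPM in muscle-like cells, Cox8a at 1792, 1275 and 1322 CPM, Cox4i1 at 1084, 752.0 and 973.5 CPM, Cox7c at 1123, 824.7 and 884.4 CPM, and Atp5l at 1033, 752.0 and 744.8 CPM. All 5 are small subunits of complex IV or V. The kit counts molecules at their 3′ ends, so CPM was not divided by gene length. Near-copies can share such reads: 51-base words of the last 300 bases of the transcript also occurred in other genes for 73.2% of the words in Cox7c, 70.0% in Atp5l and 38.0% in Cox6c, and for 0% in Cox8a and Cox4i1.

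**Figure D2:**
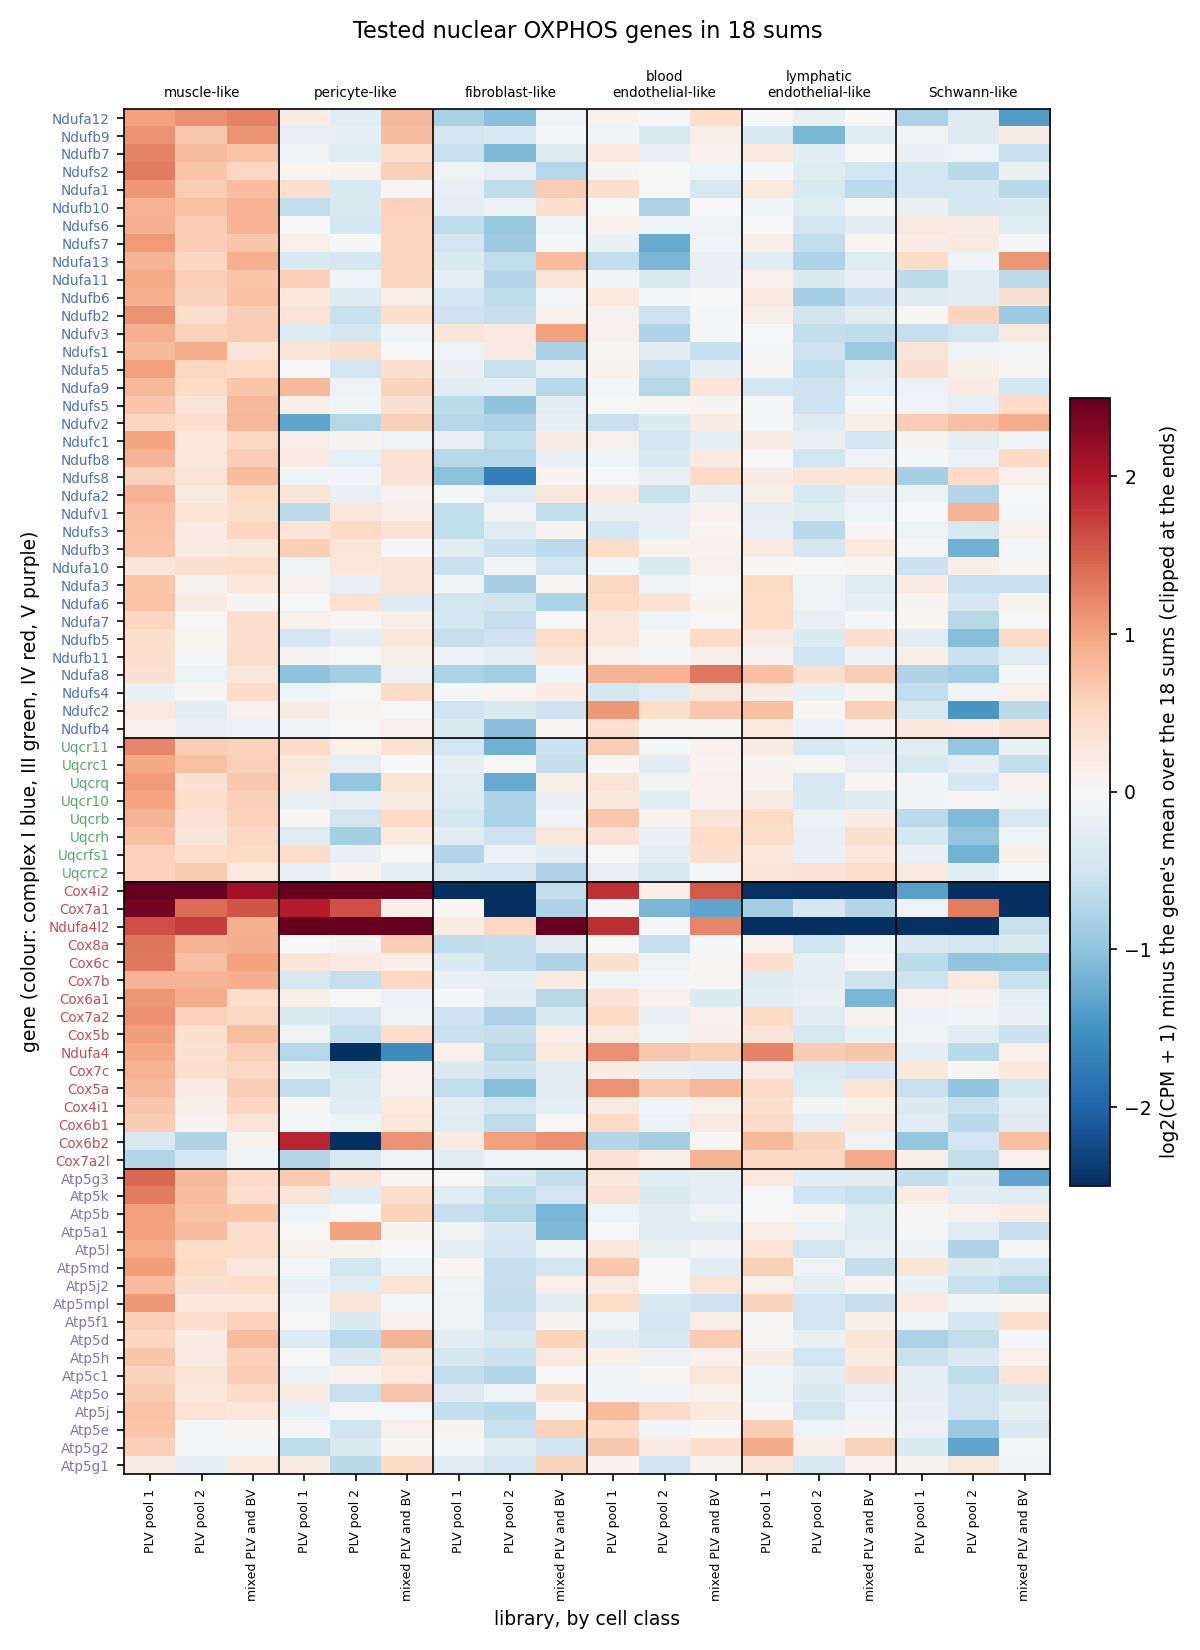
Each row is a tested member, grouped by complex, and each column is a sum of 1 library and class; colour is log2(CPM + 1) minus the gene's mean over the 18 sums. Muscle-like columns are mostly red, and the complex IV rows Cox4i2, Ndufa4l2, Ndufa4, Cox7a1 and Cox6b2 hold strong colours in both directions.

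Muscle-like cells carried more RNA for most members than fibroblast-like cells. Of 76 tested members, 47 were higher in muscle-like cells and 2 were lower, against 17.4% of all genes higher and 21.6% lower (38.9% in either direction). The median log2 difference was 0.69 over the members and -0.03 over all genes tested. By complex, 21 of 35 genes of complex I, 7 of 8 of complex III, 11 of 16 of complex IV and 8 of 17 of complex V were higher. Without PLV pool 1 the members that passed numbered 23 in place of 49, and without PLV pool 2 they numbered 30, with medians of 0.50 and 0.68. After thinning cells to 1500 UMIs 27 passed, 26 of them among the 49, and with no library block 28 passed, all among the 49. With library totals alone as the scaling, the median of all genes moved to 0.18, and 64 members were higher and 1 lower. Markers of other cell types moved with this contrast: Schwann markers summed to 602.5, 460.9 and 456.1 CPM in fibroblast-like and 153.2, 145.5 and 258.7 CPM in muscle-like cells, lymphatic endothelial markers to 635.2, 500.8 and 158.3 CPM and 134.2, 86.8 and 69.0 CPM, and blood endothelial markers to 62.6, 97.5 and 166.8 CPM and 314.6, 226.0 and 326.4 CPM. Their part in the counts was not tested.

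In complex I, Ndufa12, an accessory subunit, stood at 182.3, 196.6 and 210.2 CPM in muscle-like cells against 50.1, 42.1 and 83.2 CPM in fibroblast-like cells, a log2 difference of 1.48 (SE 0.24, adjusted p = 4.46e-05). Ndufb7 followed with a log2 difference of 1.31 (SE 0.23, adjusted p = 1.07e-04), from 427.5, 314.1 and 297.7 CPM in muscle-like and 123.5, 82.0 and 143.7 CPM in fibroblast-like cells. In complex V, Atp5b, the catalytic beta subunit, was at 715.4, 587.3 and 567.8 CPM in muscle-like and 235.7, 212.7 and 158.3 CPM in fibroblast-like cells (log2 difference 1.41, SE 0.19, adjusted p = 6.39e-06). For each of these 3 genes every muscle-like level was above every fibroblast-like level. In complex IV, Cox6c was at 615.6, 518.5 and 466.5 CPM in fibroblast-like cells, well below its muscle-like levels (log2 difference 1.36, SE 0.16, adjusted p = 9.87e-07). The other 2 large differences of complex IV were in isoforms with few UMIs. Cox4i2 stood at 63.9, 47.2 and 33.3 CPM in muscle-like cells and at 0, 0 and 4.25 CPM in fibroblast-like cells, where both PLV pools had 0 UMIs; its fitted log2 difference of 4.29 (SE 0.58, adjusted p = 5.56e-06) rests on the 9 UMIs of the mixed library. Cox7a1 stood at 29.0, 14.0 and 16.0 CPM against 4.90, 0 and 2.36 CPM (log2 difference 2.48, SE 0.47, adjusted p = 2.71e-04).

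The members lower in muscle-like than in fibroblast-like cells were both complex IV homologues with unusual roles. Cox7a2l, which binds complex III to complex IV in supercomplexes, was at 116.5, 143.0 and 178.2 CPM in muscle-like and 163.3, 179.5 and 187.2 CPM in fibroblast-like cells (log2 difference -0.52, SE 0.18, adjusted p = 0.0304). Cox6b2, known as the testis isoform of subunit VIb, was at 6.80, 5.11 and 9.85 CPM against 10.9, 19.9 and 21.7 CPM (log2 difference -1.38, SE 0.44, adjusted p = 0.0155). Cox6b2 thus made up 1.70% ± 0.565 of the Cox6b2 and Cox6b1 UMIs in muscle-like cells and 6.27% ± 2.37 in fibroblast-like cells (SD, n = 3).

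Pericyte-like cells, the other mural class, had lower levels of most members than muscle-like cells. Of 76 tested, 42 were lower and 1 was higher in pericyte-like than in muscle-like cells, against 6.91% of all genes lower and 5.34% higher (12.2% in either direction). The median log2 difference was -0.75 over the members and -0.06 over all genes. The lower members were 16 of 35 in complex I, 7 of 8 in complex III, 10 of 16 in complex IV and 9 of 17 in complex V. The mitochondrially encoded subunits did not show a gap of this size: their summed share was 4.96%, 5.03% and 4.14% in muscle-like and 4.59%, 5.51% and 3.94% in pericyte-like cells, a muscle-like to pericyte-like ratio of 1.08, 0.913 and 1.05, beside 1.81, 1.48 and 1.21 for the nuclear members; the difference of these ratios was not tested. The muscle-like share of mitochondrially encoded subunits pools kinds of cluster described below. It was under the pericyte-like share of the same library in the Ano1/Hmcn2 kind (4.04%, 4.23% and 3.53%). In the Pln/Sorbs2 kind it was above the pericyte-like share (5.40%, 5.60% and 5.90%). Markers of other cell types moved with this contrast as well. Blood endothelial markers summed to 1819, 1251 and 1018 CPM in pericyte-like and 314.6, 226.0 and 326.4 CPM in muscle-like cells. The adipocyte list summed to 3595, 3622 and 3549 CPM in pericyte-like cells and to at most 183.2 CPM in muscle-like cells, with 5, 7 and 7 of its 8 genes at 0 UMIs in pericyte-like cells, and to 16148, 14676 and 17974 CPM in blood endothelial-like cells. Fibroblast markers summed to 4866, 2175 and 3238 CPM in pericyte-like and 1500, 1444 and 5047 CPM in muscle-like cells. Their part in the counts was not tested. The number of calls depended on the libraries: 4 members passed without PLV pool 1 and 4 without PLV pool 2, at medians of -0.57 and -0.79. With library totals alone the all-gene median was 0.14, and 26 members were lower and 1 higher. With cells thinned to 1500 UMIs 18 members passed, 15 of them among the 43, and with no library block 10 passed, all among the 43.

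The member that was higher in pericyte-like cells was Ndufa4l2, and the member with the largest fall was its paralogue Ndufa4. Ndufa4l2 was at 319.1, 367.9 and 481.2 CPM in pericyte-like cells and 76.6, 83.0 and 46.4 CPM in muscle-like cells (log2 difference 2.21, SE 0.57, adjusted p = 0.0142). Ndufa4 was at 175.5, 24.5 and 95.7 CPM in pericyte-like and 560.4, 374.1 and 435.6 CPM in muscle-like cells (log2 difference -2.42, SE 0.31, adjusted p = 3.40e-05). For neither gene did the levels of the classes overlap, and they moved in opposite directions. Of the UMIs of the pair, Ndufa4l2 made up 64.5%, 93.8% and 83.4% in pericyte-like cells, with 95% Clopper-Pearson intervals of 53.9% to 74.2%, 82.8% to 98.7% and 77.8% to 88.1%; in muscle-like cells it made up 12.0%, 18.2% and 9.63%. The mean share was 80.6% ± 14.8 in pericyte-like and 13.3% ± 4.40 in muscle-like cells (SD, n = 3), from 286 Ndufa4l2 and 72 Ndufa4 UMIs in pericyte-like cells in all. No 51-base word at the 3′ end of either transcript occurred in another gene. Intervals here and below cover counting error only. The log2 difference of Ndufa4l2 did not pass without PLV pool 2 (2.34, adjusted p = 0.104) or with only cells of at least 1000 UMIs (1.86, adjusted p = 0.0782), while that of Ndufa4 passed without any of the 3 libraries (-2.74 without PLV pool 1, -2.17 without PLV pool 2 and -2.40 without the mixed library). Pericyte-like cells were also shallower, at a median of 2838, 4617 and 6223 UMIs against 4712, 6721 and 7568 in muscle-like cells; with every cell thinned to 1500 UMIs the log2 difference was 2.39 for Ndufa4l2 and -2.15 for Ndufa4.

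Ndufa4l2 lies on GRCm38 at chr10:127514967-127517154 on the plus strand, where GENCODE vM21 has exons of Shmt2 on the other strand, and Ndufa4 lies at chr6:11900292-11907497 on the minus strand. The RefSeq promoter table (GRCm38.p6, 250 bases before to 50 after the start) matched 64 of the 80 members; it has an entry for Ndufa4 but was not matched for Ndufa4l2, Cox4i2 or Cox4i1. The promoters of Ndufa4, the subunit with the largest fall in pericyte-like cells, and of the isoforms Cox7a1 and Cox7a2, which were both higher in muscle-like than in fibroblast-like cells, are shown with the hypoxia response core (ACGTG or GCGTG, either strand) in capitals. They lie at chr6:11907401-11907700 on the minus strand, chr7:30183921-30184220 on the plus strand and chr9:79759804-79760103 on the minus strand.
Ndufa4: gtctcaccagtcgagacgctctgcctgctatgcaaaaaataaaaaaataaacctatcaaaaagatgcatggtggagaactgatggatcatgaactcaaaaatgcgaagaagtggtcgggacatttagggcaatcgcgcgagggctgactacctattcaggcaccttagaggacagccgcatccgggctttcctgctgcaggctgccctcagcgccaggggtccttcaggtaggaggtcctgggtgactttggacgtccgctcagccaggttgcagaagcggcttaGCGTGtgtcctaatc
Cox7a1: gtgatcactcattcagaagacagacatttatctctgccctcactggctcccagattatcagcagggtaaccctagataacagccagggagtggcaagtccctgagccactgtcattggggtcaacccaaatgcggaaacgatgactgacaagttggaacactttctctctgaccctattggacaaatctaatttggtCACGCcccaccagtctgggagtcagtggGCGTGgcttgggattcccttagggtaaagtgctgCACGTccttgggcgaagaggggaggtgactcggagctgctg
Cox7a2: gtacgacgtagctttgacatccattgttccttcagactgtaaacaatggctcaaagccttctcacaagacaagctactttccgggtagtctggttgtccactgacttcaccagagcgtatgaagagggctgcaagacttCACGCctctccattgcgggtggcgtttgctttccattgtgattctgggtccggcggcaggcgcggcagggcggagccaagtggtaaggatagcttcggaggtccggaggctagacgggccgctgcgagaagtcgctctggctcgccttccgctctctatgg
These windows hold 1, 3 and 1 matches. The promoters of another isoform pair, Cox6b1 and Cox6b2, hold 2 and 0 and are not printed. The core occurred in 63.8% of the 69 promoters of members and in 43.8% of all 32851 promoters of the table. Of other motifs searched on both strands, the core of the nuclear respiratory factor NRF1 (GCGCATG) occurred in 17.4% of member promoters and 3.9% of all, the ETS core (CCGGAAG) in 21.7% and 8.9%, and the YY1 core (AAGATGG) in 14.5% and 6.3%. A match is a stretch of letters and does not show binding.

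The levels of Ndufa4l2 spread widely over the other classes. Blood endothelial-like cells had 90.7, 23.7 and 58.4 CPM and fibroblast-like cells 27.8, 35.5 and 211.7 CPM, so that the mixed library's fibroblast-like sum stood apart from those of the PLV pools. Schwann-like cells had 0, 0 and 16.4 CPM, and lymphatic endothelial-like cells 0, 0 and 1.21 CPM, where 3 UMIs would be 1.31 CPM in PLV pool 1 and 3.23 CPM in PLV pool 2. In order, pericyte-like cells came highest without overlap with any class of the same library, muscle-like, blood endothelial-like and fibroblast-like levels overlapped, and lymphatic endothelial-like and Schwann-like levels were lowest, with overlap between them. With each cell thinned to 1500 UMIs, 37.5%, 39.1% and 38.2% of pericyte-like cells had a Ndufa4l2 UMI (56.8%, 66.7% and 74.6% unthinned), against 0% of lymphatic endothelial-like cells in all 3 libraries (0%, 0% and 1.89% unthinned), whose median depth was 3498, 7134 and 4959 UMIs. Over the 18 sums, the 5 genes outside the members whose log2(CPM + 10) followed Ndufa4l2 most closely were Pdgfrb (Pearson r 0.926), Hopx (0.909), Map7d3 (0.904), Vstm4 (0.902) and Naalad2 (0.898) out of 11599 genes compared. Among members Cox4i2 had an r of 0.830, Ndufa4 of -0.491 and Cox4i1 of 0.194. Pdgfrb is also among the markers used to name the pericyte-like class. These sums share libraries and depth, and the correlations are descriptions.

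**Figure D3:**
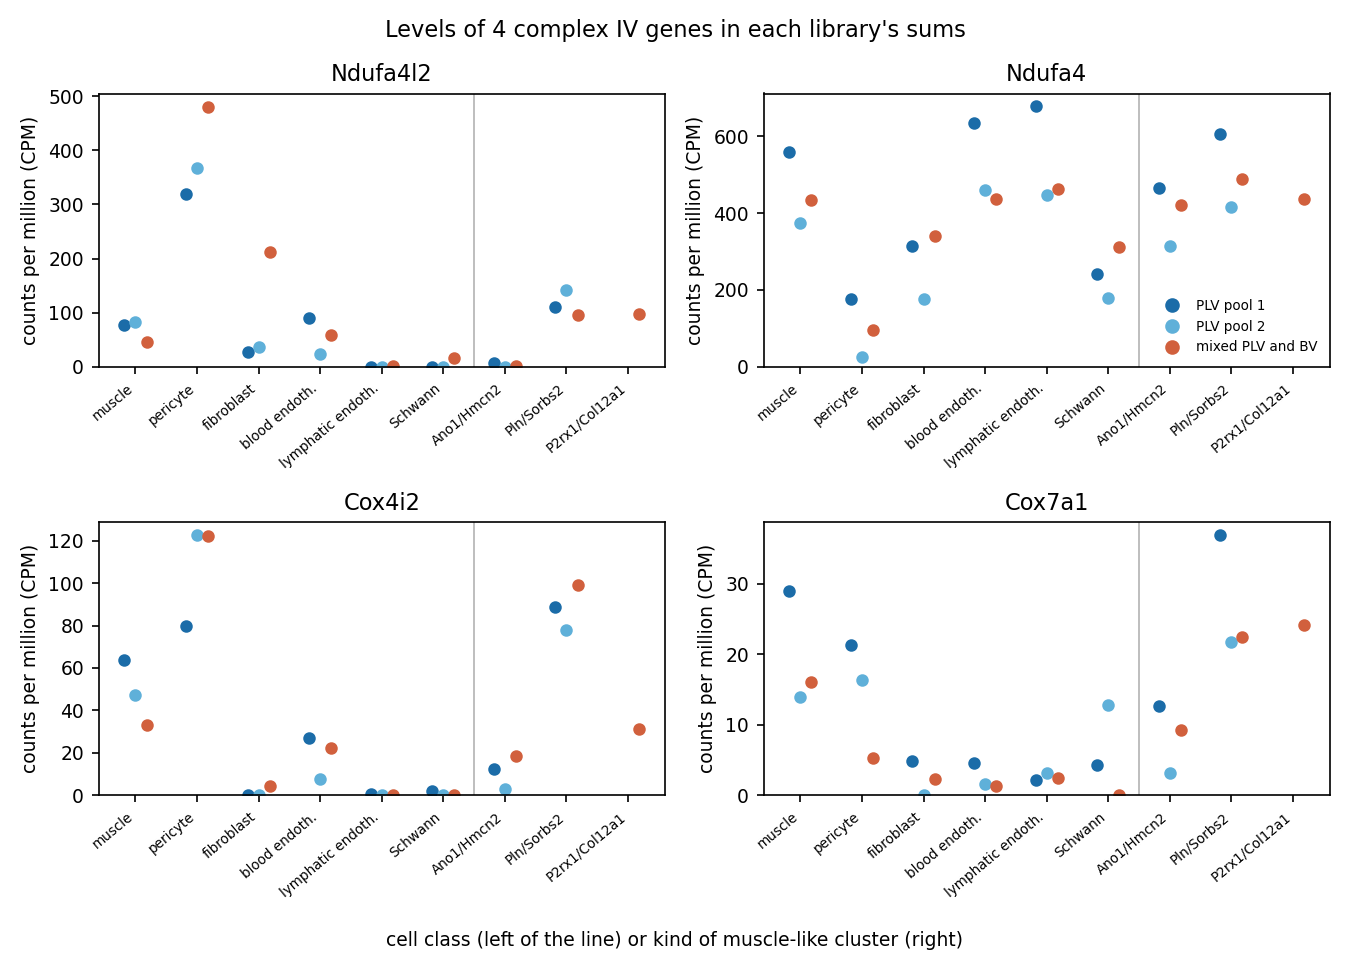
CPM of Ndufa4l2, Ndufa4, Cox4i2 and Cox7a1 in each library's sums, by class and by kind of muscle-like cluster. Ndufa4l2 reaches 319.1 to 481.2 CPM in pericyte-like cells, where Ndufa4 is at its lowest (24.5 to 175.5 CPM), and Ndufa4l2, Cox4i2 and Cox7a1 are higher in the Pln/Sorbs2 kind than in the Ano1/Hmcn2 kind in every library.

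Within classes, clusters differed in Ndufa4l2. The 3 fibroblast-like clusters of the mixed library had 298.8, 116.9 and 171.8 CPM, at 15.7, 5.92 and 12.4 CPM of the muscle marker Acta2 and 0, 2.96 and 0 CPM of the pericyte marker Rgs5. The fibroblast-like clusters of PLV pool 1 had 0, 77.0, 27.3 and 22.1 CPM of Ndufa4l2. A blood endothelial-like cluster of PLV pool 1 led by Sema3g and Gja5 had 190.6 CPM, with Acta2 at 1225 CPM and Rgs5 at 1560 CPM, and the other 2 of that pool had 81.6 and 27.2 CPM of Ndufa4l2, with Acta2 at 197.5 and 157.2 CPM and Rgs5 at 1551 and 647.5 CPM. The part of mural RNA in these endothelial levels was not tested.

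A shallow cluster of PLV pool 1 belongs beside these values. It held 98 cells with a median of 976.5 UMIs, and its summed UMIs were led by keratinocyte genes, but 93 of the cells had no keratinocyte marker UMI and 90 carried more muscle and pericyte marker UMIs than those of any other class. These 90 cells had Ndufa4l2 at 588.9 CPM (95% interval 474.7 to 722.2), Ndufa4 at 294.5 CPM, Cox4i2 at 121.6 CPM and 2.84% of their UMIs in members. Ndufa4l2 was 66.7% of the pair (58.1% to 74.5%), a share like that of the pericyte-like cells of the same library (64.5%). Their Acta2 (8245 CPM) lay between that of the pericyte-like cluster (2686 CPM) and the muscle-like clusters (14588 and 14482 CPM) of this pool. Their Rgs5 (4180 CPM) lay between that of the muscle-like clusters (440.5 and 365.5 CPM) and the pericyte-like cluster (8211 CPM). Both genes are among the markers by which these cells were picked. A like cluster of the mixed library had 41 such cells with 29.0 CPM of Ndufa4l2 from 2 UMIs, Acta2 at 6695 CPM and Rgs5 at 406.7 CPM. Both were left out of the classes. Counted as muscle-like they left a pericyte-like minus muscle-like log2 difference for Ndufa4l2 of 1.98 (adjusted p = 0.0330) with 41 members passing, and counted as pericyte-like 2.36 (adjusted p = 0.00997) with 29 passing.

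Cox4i2, the isoform of complex IV subunit 4 that is known from the lung and from oxygen-sensing cells, was among the 6 classes likewise highest in pericyte-like cells of every library, at lower levels, but differed from Ndufa4l2 in fibroblast-like cells. It was at 79.8, 122.6 and 122.3 CPM in pericyte-like, 63.9, 47.2 and 33.3 CPM in muscle-like, 27.2, 7.90 and 22.2 CPM in blood endothelial-like, 0, 0 and 4.25 CPM in fibroblast-like, 2.11, 0 and 0 CPM in Schwann-like, and 0.438, 0 and 0 CPM in lymphatic endothelial-like cells. Pericyte-like levels were above muscle-like levels in every library, but the test missed the threshold (log2 difference 0.99, SE 0.42, adjusted p = 0.145). In PLV pool 1 Cox4i2 was higher still in the Pln/Sorbs2 kind described below (88.5 CPM) and in the shallow cells above (121.6 CPM). Cox4i1, the common isoform, was lower in pericyte-like cells at 686.0, 547.7 and 792.2 CPM against 1084, 752.0 and 973.5 CPM (log2 difference -0.67, SE 0.17, adjusted p = 0.0111). Cox4i2 was 10.4%, 18.3% and 13.4% of the UMIs of this pair in pericyte-like cells and 5.57%, 5.91% and 3.30% in muscle-like cells. Cox4i1 thus remained the main isoform in every class, unlike Ndufa4 in pericyte-like cells. On GRCm38, Cox4i2 lies at chr2:152754173-152765037 and Cox4i1 at chr8:120668222-120674207, both on the plus strand.

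**Figure D4:**
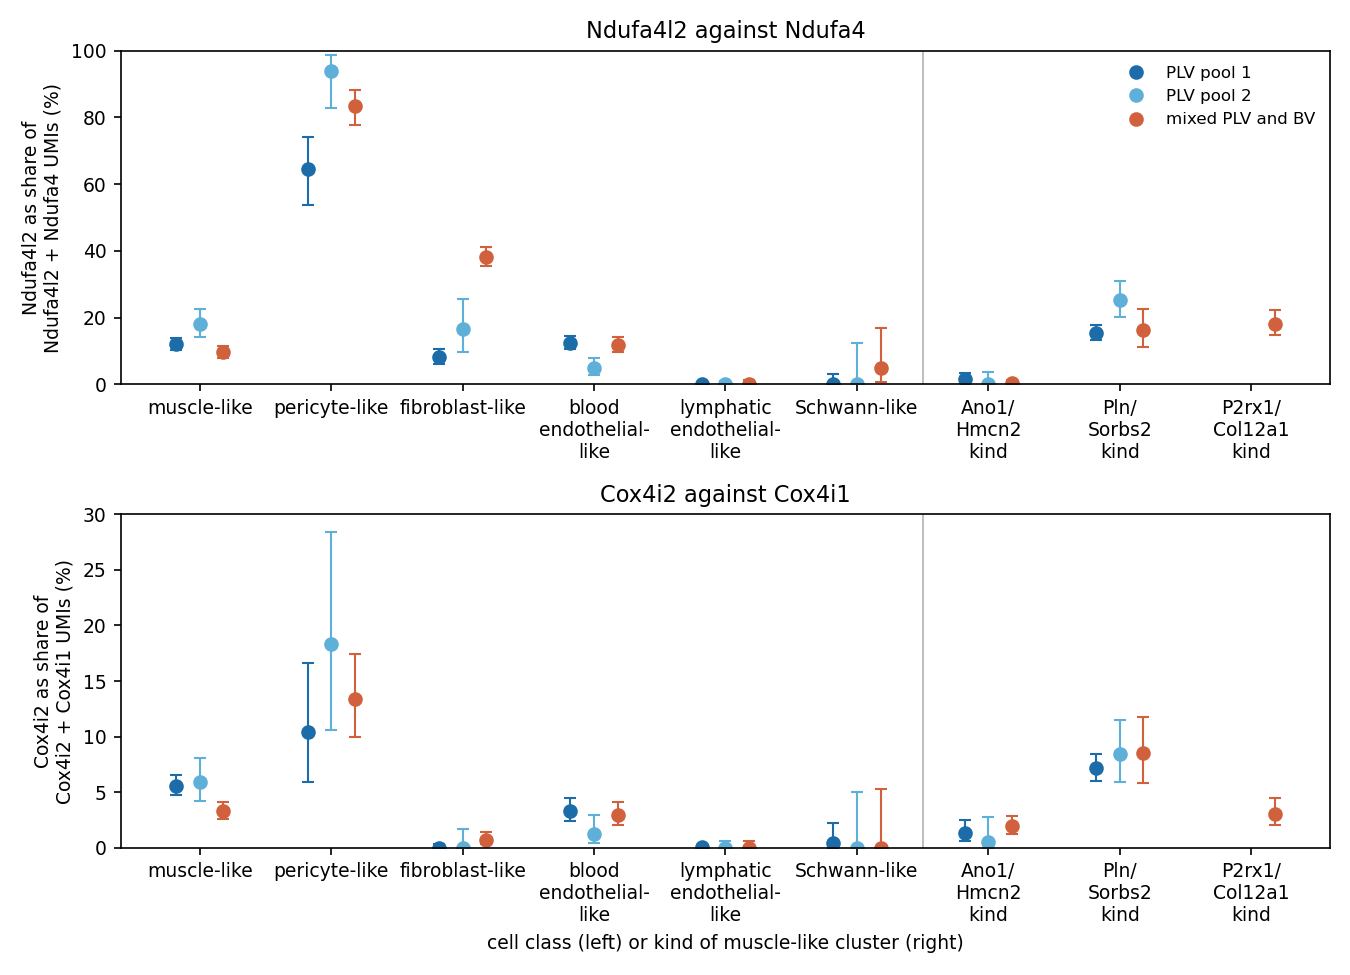
Share of Ndufa4l2 in the UMIs of Ndufa4l2 and Ndufa4 (top) and of Cox4i2 in those of Cox4i2 and Cox4i1 (bottom), with 95% Clopper-Pearson intervals, 1 point per library. Pericyte-like cells hold the highest shares in both panels (64.5% to 93.8% and 10.4% to 18.3%), the mixed library's fibroblast-like point of the top panel is at 38.3%, and the Pln/Sorbs2 kind lies above the Ano1/Hmcn2 kind in both.

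Other members that fell in pericyte-like cells included Cox7a2, at 260.6, 245.3 and 303.1 CPM against 733.1, 492.8 and 473.4 CPM in muscle-like cells (log2 difference -1.26, SE 0.22, adjusted p = 7.11e-04). Cox7b (-1.10) and the complex I subunits Ndufv3 (-1.19), Ndufb7 (-1.08) and Ndufa13 (-1.06) fell by similar amounts on the log2 scale, and in each of these genes the pericyte-like level was below the muscle-like level in every library. Among genes of related pathways, beside 6.91% of all genes lower and 5.34% higher, 2 of 5 tested genes of complex II and cytochrome c, 5 of 17 tested genes of the tricarboxylic acid cycle, 7 of 19 of glycolysis, 6 of 9 of ATP export and buffering and 3 of 13 mitochondrially encoded subunits were lower in pericyte-like cells, and the gene of these lists that was higher was Pdk1, the kinase that inhibits pyruvate dehydrogenase and so limits the conversion of pyruvate to acetyl-CoA (log2 difference 1.34, SE 0.34, adjusted p = 0.0112). Ckb, the brain-type creatine kinase, was at 133.0, 212.6 and 271.2 CPM against 912.2, 851.6 and 1194 CPM in muscle-like cells (log2 difference -2.47, SE 0.39, adjusted p = 2.41e-04), and Slc25a4, which exchanges ADP for ATP across the inner membrane, had a log2 difference of -1.02 (SE 0.20, adjusted p = 0.00187). Of the 32 assembly factors tested, 3 were lower, near the share of all genes, and 1, Cox18, was higher (log2 difference 1.43, SE 0.40, adjusted p = 0.0231). Among 15 regulators of mitochondrial and hypoxic gene expression tested, 0 were higher and 1 was lower, Esrra (log2 difference -1.55, SE 0.47). The median log2 difference of these regulators was -0.30.

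Blood endothelial-like cells were also below muscle-like cells for most members, with exceptions that ran the other way. Of 76 tested members, 48 were lower and 3 higher, against 20.4% of all genes lower and 19.9% higher (40.3% in either direction), at a median log2 difference of -0.68 over members and -0.02 over all genes. The 3 higher members were Cox7a2l, at 250.1, 218.1 and 354.8 CPM against 116.5, 143.0 and 178.2 CPM in muscle-like cells (log2 difference 0.86, SE 0.18, adjusted p = 7.10e-04), Ndufa8 at 215.2, 216.5 and 295.8 CPM against 154.1, 107.2 and 143.7 CPM (0.78, SE 0.21, adjusted p = 0.00494), and Ndufc2 at 336.3, 218.1 and 255.2 CPM against 185.9, 131.5 and 172.0 CPM (0.67, SE 0.19, adjusted p = 0.00726). Ndufa8 and Ndufc2 are accessory subunits of complex I. The lower members were led by Cox7a1 (log2 difference -2.98, SE 0.49, adjusted p = 5.68e-05), which was at 4.54, 1.58 and 1.27 CPM in blood endothelial-like cells, followed by Ndufa13 (-1.48), Ndufs7 (-1.31), Cox8a (-1.31) and Cox4i2 (-1.29). Ndufa4 did not pass, at 635.1, 461.5 and 436.7 CPM (log2 difference 0.13, SE 0.26, adjusted p = 0.738). Markers of other cell types moved with this contrast: erythroid markers summed to 4021, 542.1 and 169.5 CPM in blood endothelial-like and 629.3, 113.6 and 123.6 CPM in muscle-like cells, and fibroblast markers to 419.9, 273.4 and 564.9 CPM and 1500, 1444 and 5047 CPM. The summed markers of the adipocyte list, given above, were also far higher in blood endothelial-like than in muscle-like cells. Their part in the counts was not tested. With no library block 28 members passed. Without PLV pool 1 the members that passed numbered 31 in place of 51, and without PLV pool 2 they numbered 27.

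Lymphatic endothelial-like cells differed from blood endothelial-like cells in few members: 5 were lower and 1 higher, where 11.5% of all genes were lower and 9.66% higher (21.1% in either direction), and the median log2 difference was -0.09 over members and -0.01 over all genes. Ndufa4l2 had 1 UMI and Cox4i2 1 UMI in all lymphatic endothelial-like cells, against 247 and 82 UMIs in blood endothelial-like cells, so fitted folds are not given. Pericyte markers moved with these genes, summing to 1832, 836.1 and 1061 CPM in blood endothelial-like and 78.8, 10.8 and 6.03 CPM in lymphatic endothelial-like cells, with 0 of 8 at 0 UMIs in the former and 2, 4 and 6 of 8 in the latter. Erythroid markers were at 4021, 542.1 and 169.5 CPM against 1034, 74.3 and 108.6 CPM, and muscle markers at 1623, 907.2 and 1263 CPM against 1401, 246.6 and 152.1 CPM. The part of these in the contrast was not tested. Atp5j, a stalk subunit of the ATP synthase, was at 371.5, 260.6 and 342.8 CPM against 631.9, 512.1 and 431.0 CPM (log2 difference -0.72, SE 0.23, adjusted p = 0.0314). Cox5a (-0.70, adjusted p = 0.0201) and Cox6a1 (-0.56, adjusted p = 0.0249) were also lower on the log2 scale, while Uqcrc2, a core subunit of complex III, was higher at 105.4, 108.8 and 114.7 CPM against 74.5, 64.8 and 83.1 CPM (0.54, SE 0.17, adjusted p = 0.0305). Of the 15 regulators of mitochondrial and hypoxic gene expression tested, 2 were higher and 3 lower in lymphatic endothelial-like cells. Egln3, a prolyl hydroxylase that marks hypoxia-inducible factors for breakdown, was higher at 73.1, 42.0 and 19.3 CPM against 4.54, 4.74 and 3.17 CPM (log2 difference 3.38, SE 0.52, adjusted p = 1.37e-04). The other was Ppargc1a, at 7.00, 15.1 and 2.41 CPM against 1.30, 0 and 1.27 CPM (adjusted p = 0.0232), levels that rest on few UMIs. Epas1, which encodes the hypoxia-inducible factor HIF-2 alpha, was lower at 125.6, 116.3 and 96.6 CPM against 1277, 1122 and 572.5 CPM (log2 difference -3.07, SE 0.32, adjusted p = 5.71e-07), as were Hif1a (-1.11) and Egln1 (-0.87). Leaving out PLV pool 1 or PLV pool 2 left 2 members past the threshold in place of 6.

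The muscle-like class held distinct kinds of cluster, named here after a pair of marker genes, and the members differed between them. Clusters marked by Ano1, a calcium-activated chloride channel, and Hmcn2 held 136, 57 and 188 cells, clusters marked by Pln, the phospholamban that restrains the calcium pump of the sarcoplasmic reticulum, and Sorbs2 held 287, 53 and 44 cells, and a kind marked by P2rx1 and Col12a1 held 75 cells of the mixed library. Members made up 3.51%, 2.76% and 3.13% of the UMIs in the Pln/Sorbs2 kind and 2.36%, 1.60% and 2.32% in the Ano1/Hmcn2 kind, ratios of 1.48, 1.72 and 1.35, and 2.51% in the P2rx1/Col12a1 kind. The mitochondrially encoded subunits had ratios of 1.34, 1.32 and 1.67 between the same kinds. The P2rx1/Col12a1 kind was not tested, being in 1 library.

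Of the 75 members tested, 65 were higher in the Pln/Sorbs2 kind and 0 lower, against 16.9% of all genes higher and 16.0% lower (32.9% in either direction). The median log2 difference was 0.71 over the members and -0.00 over all 7073 genes tested. All 17 genes of complex V and all 8 of complex III passed, with 27 of 35 in complex I and 13 of 15 in complex IV. The 10 that did not pass were Cox6c, Cox7a2l and 8 of complex I, among them Ndufs4, whose log2 difference of -0.09 (SE 0.20, adjusted p = 0.777) was the only one below 0. Cox6b2 was filtered out here, with 8 and 30 UMIs in the Pln/Sorbs2 and the Ano1/Hmcn2 kind, and ran the other way in every library, at 4.69, 0 and 3.20 CPM in the Pln/Sorbs2 kind and 11.2, 12.4 and 13.9 CPM in the Ano1/Hmcn2 kind, or 0.488% ± 0.434 and 3.80% ± 1.37 of the Cox6b2 and Cox6b1 UMIs (SD, n = 3). With library totals alone the all-gene median moved to -0.17 and 52 members were higher and 0 lower. DESeq2 passed 43, without PLV pool 1 the test passed 36, and with no library block it passed 30. Markers of other cell types moved with this contrast: fibroblast markers summed to 3426, 2857 and 5311 CPM in the Ano1/Hmcn2 kind and 577.9, 455.6 and 2502 CPM in the Pln/Sorbs2 kind, and blood endothelial markers to 603.5, 338.2 and 437.1 CPM and 176.3, 147.5 and 111.8 CPM. Their part in the counts was not tested.

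The largest differences between the kinds were again in complex IV isoforms. Ndufa4l2 was at 110.0, 141.0 and 95.9 CPM in the Pln/Sorbs2 kind and at 7.00, 0 and 1.55 CPM in the Ano1/Hmcn2 kind (log2 difference 5.20, SE 0.37, adjusted p = 1.22e-16), the latter from 7 UMIs in all, and it was at 97.6 CPM in the P2rx1/Col12a1 kind. It was 15.4%, 25.3% and 16.4% of the Ndufa4l2 and Ndufa4 UMIs in the Pln/Sorbs2 kind, 1.48%, 0% and 0.366% in the Ano1/Hmcn2 kind and 18.2% in the P2rx1/Col12a1 kind. The fold of Ndufa4l2 and its p rest on 1 sum per kind and library, with 0 UMIs in the Ano1/Hmcn2 kind of PLV pool 2. Ndufa4 itself was also higher in the Pln/Sorbs2 kind (log2 difference 0.49, SE 0.15, adjusted p = 0.00789), so that within muscle-like cells the paralogues moved the same way. With cells thinned to 1500 UMIs, a Ndufa4l2 UMI was found in 11.7%, 20.8% and 11.6% of cells of the Pln/Sorbs2 kind and in 0.752%, 0% and 0% of the Ano1/Hmcn2 kind (23.7%, 39.6% and 36.4% against 2.21%, 0% and 0.532% unthinned). Rgs5 was at 440.5, 273.4 and 70.3 CPM in the Pln/Sorbs2 kind and 365.5, 186.1 and 248.3 CPM in the Ano1/Hmcn2 kind and the pericyte markers together summed to 2233, 1892 and 1083 CPM against 2135, 1694 and 1352 CPM; their part in the Ndufa4l2 difference was not tested.

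Cox4i2 was at 88.5, 78.1 and 99.1 CPM in the Pln/Sorbs2 kind, at 12.6, 3.10 and 18.6 CPM in the Ano1/Hmcn2 kind (log2 difference 2.91, SE 0.29, adjusted p = 5.17e-12) and at 31.3 CPM in the P2rx1/Col12a1 kind. Its share of the Cox4i2 and Cox4i1 UMIs was 8.02% ± 0.748 and 1.25% ± 0.719 in the kinds tested (SD, n = 3), and 3.06% in the P2rx1/Col12a1 kind. Cox7a1, the heart and skeletal muscle isoform of subunit VIIa, was at 36.9, 21.7 and 22.4 CPM against 12.6, 3.10 and 9.28 CPM (log2 difference 1.72, SE 0.42, adjusted p = 7.06e-04). Its partner Cox7a2 rose as well, from 431.3, 220.3 and 373.7 CPM in the Ano1/Hmcn2 kind to 877.6, 683.4 and 789.3 CPM in the Pln/Sorbs2 kind (log2 difference 1.37, SE 0.16, adjusted p = 2.63e-10), so Cox7a1 remained a small part of the pair, 3.29% ± 0.664 and 2.22% ± 0.747 (SD, n = 3). Cox7a2l did not pass, at 119.3, 145.4 and 169.4 CPM against 110.6, 139.6 and 169.4 CPM (log2 difference 0.22, SE 0.17, adjusted p = 0.378), and its share of the Cox7a2l and Cox7a2 UMIs was 15.7% ± 3.25 in the Pln/Sorbs2 kind and 30.1% ± 9.24 in the Ano1/Hmcn2 kind. Ndufb7 (log2 difference 1.33, SE 0.16, adjusted p = 9.46e-10) and Cox8a (1.16, SE 0.15, adjusted p = 4.27e-09) were next in size. Cox6c, the most abundant member, did not pass, at 1946, 1399 and 1473 CPM against 1942, 1204 and 1666 CPM (0.17, SE 0.14, adjusted p = 0.411).

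Of the related pathway lists, some had many higher genes in the Pln/Sorbs2 kind and others did not, beside 16.9% of all genes higher and 16.0% lower. There 12 of 13 mitochondrially encoded subunits, 11 of 17 genes of the tricarboxylic acid cycle, 10 of 17 of glycolysis and 6 of 8 of ATP export and buffering were higher, while 2 of the tricarboxylic acid cycle and 1 of glycolysis were lower. Of the 21 assembly factors tested, 4 were higher and 0 lower, a share near that of all genes, and 2 of 5 genes of complex II and cytochrome c were higher and 0 lower. Of 12 regulators of mitochondrial and hypoxic gene expression tested, 6 were higher and 0 lower. Ppargc1a, the coactivator PGC-1 alpha that drives mitochondrial biogenesis, was at 27.5, 32.5 and 22.4 CPM in the Pln/Sorbs2 kind and had 0 UMIs in the Ano1/Hmcn2 kind of all 3 libraries, so no fold is given. Esrra, the estrogen-related receptor it works with, was at 48.3, 43.4 and 41.5 CPM against 21.0, 15.5 and 8.51 CPM (log2 difference 1.72, SE 0.34, adjusted p = 4.13e-05), and Hif1a, the hypoxia-inducible factor, was at 279.6, 212.6 and 386.6 CPM against 166.6, 127.2 and 148.5 CPM (1.14, SE 0.17, adjusted p = 1.84e-07). Idh2, of the tricarboxylic acid cycle (1.50, SE 0.18, adjusted p = 1.42e-09), and Slc25a5, an ADP and ATP carrier (1.47, SE 0.16, adjusted p = 8.35e-11), were also higher.

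Between muscle-like and fibroblast-like cells, where 17.4% of all genes were higher and 21.6% lower, 13 of 13 mitochondrially encoded subunits, 14 of 17 genes of the tricarboxylic acid cycle, 13 of 19 of glycolysis, 6 of 9 of ATP export and buffering and 4 of 5 of complex II and cytochrome c were higher in muscle-like cells. Glycolysis had 1 lower gene and the others of these lists 0. Assembly factors did not share this direction, with 4 of 32 higher, 2 lower and a median log2 difference of 0.00, and of 15 regulators 5 were higher and 1 lower at a median of 0.19. Sdhc, a membrane anchor of complex II, was at 253.9, 223.4 and 166.7 CPM against 57.1, 33.2 and 36.4 CPM (log2 difference 2.07, SE 0.22, adjusted p = 2.82e-07). Epas1 was at 814.7, 718.8 and 319.8 CPM in muscle-like and 7.08, 42.1 and 6.14 CPM in fibroblast-like cells (log2 difference 5.30, SE 0.40, adjusted p = 3.57e-09).

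**Figure D5:**
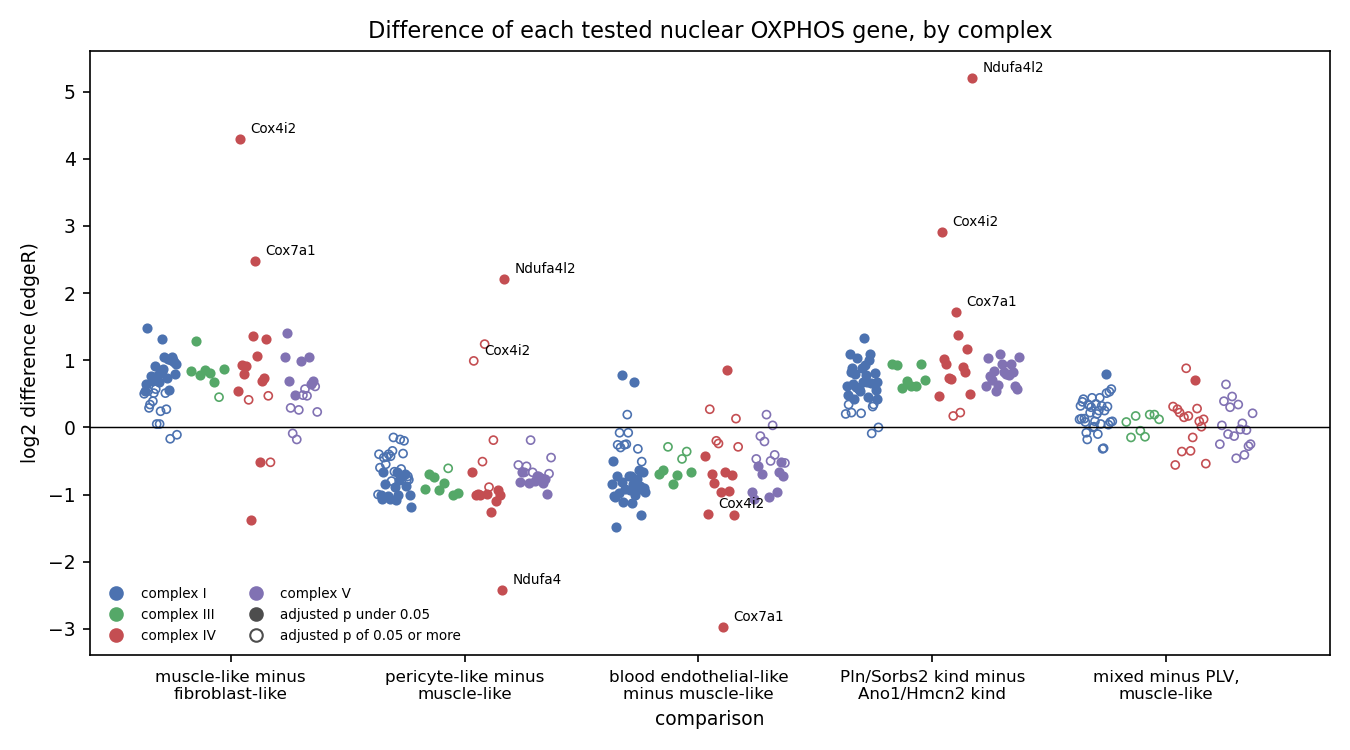
Log2 difference of every tested member in 5 comparisons, coloured by complex, filled where the adjusted p was under 0.05. Most members lie above 0 in muscle-like minus fibroblast-like cells (47 higher) and in the Pln/Sorbs2 minus the Ano1/Hmcn2 kind (65 higher), below 0 in pericyte-like minus muscle-like cells (42 lower), and around 0 in the mixed minus the PLV libraries, with the named points set apart from their complex.

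Cox7a2l made up 21.2% ± 6.91 of the UMIs of the Cox7a2l and Cox7a2 pair in muscle-like, 35.2% ± 3.63 in pericyte-like, 42.4% ± 7.38 in blood endothelial-like, 44.1% ± 3.59 in fibroblast-like and 46.6% ± 8.16 in lymphatic endothelial-like cells (SD, n = 3). In lymphatic endothelial-like cells of PLV pool 2 and the mixed library it was level with Cox7a2, at 50.5% (95% exact interval 46.1% to 54.9%) and 52.2% (48.1% to 56.2%). Of the striated muscle isoforms, Cox7a1 was present at the levels given above, while Cox6a2 and Cox8b were near absent. Cox6a2 had 10 UMIs in the 6 classes, all in the Ano1/Hmcn2 kind of the mixed library (7.74 CPM, where Cox6a1 was at 355.1 CPM), and Cox8b had 1 UMI in the 6 classes and 0 in muscle-like cells, where Cox8a had 8170. Cox7b2 and Cox8c, known from the testis, had 0 UMIs in all cells kept. These 4 genes were not tested. Among the 3 genes for subunit c of the ATP synthase, which encode the same mature protein, Atp5g3 made up 45.8% ± 5.59 of the UMIs in muscle-like cells and 28.6% ± 2.45 in blood endothelial-like cells, and Atp5g2 33.3% ± 0.563 and 48.8% ± 0.739 (SD, n = 3), so Atp5g3 led in muscle-like and Atp5g2 in blood endothelial-like cells of every library. Of the 3′ words, 40.8% in Atp5g2, 20.0% in Atp5g1 and 0% in Atp5g3 occurred in other genes.

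In muscle-like cells the mixed library, which is 1 sample, was set against the 2 PLV pools, which leaves 1 residual degree of freedom, and the calls changed with the settings. Of 76 tested members, 2 were past the threshold as higher and 0 as lower, against 9.09% of all genes higher and 8.19% lower (17.3% in either direction), and the median log2 difference was 0.13 over members. They were Ndufs4, at 66.6 and 76.6 CPM in the PLV pools and 104.7 CPM in the mixed library (log2 difference 0.80, SE 0.24, adjusted p = 0.0101), and Cox7a2l, at 116.5, 143.0 and 178.2 CPM (0.70, SE 0.24, adjusted p = 0.0252). With library totals alone the all-gene median moved to -0.24, neither gene passed, and 2 other members were lower, Ndufa4l2 at -0.77, adjusted p = 0.0218, and Cox4i2 at -0.79, adjusted p = 0.0238. DESeq2, cells thinned to 1500 UMIs and a mitochondrial limit of 10% each passed 0 members, and a minimum of 1000 UMIs per cell passed 5. The lone mixed sample was assumed to vary like the PLV samples, and the kinds were unevenly spread, with the Pln/Sorbs2 kind at 287 of 423 and 53 of 110 muscle-like cells in the PLV pools and 44 of 307 in the mixed library; the part of this in the comparison was not tested.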

How the data were processed

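Single-cell RNA was measured with a droplet 3′ kit. The deposited files hold raw UMI counts per gene and cell, not normalized, made by the authors with Cell Ranger (6.1.2 for the PLV pools and 4 for the mixed library, per the file headers) on GRCm38, per the submitters' processing notes, which also name Seurat. Cells were kept from 500 UMIs and 300 genes upward, with mitochondrial UMIs up to 15% and haemoglobin UMIs up to 20% of the total, and doublets called by scrublet (10, 3 and 3) were removed. Clusters were made per library with scanpy 1.11.5 and leidenalg 0.10.2 at resolution 1 (2000 variable genes, 50 components, 15 neighbours), with the members, pathway lists and mitochondrial genes left out. For a class name, 3 markers had to exceed the rest of the library 2-fold after adding 20 CPM, and 50% of the cluster's cells had to hold a marker UMI; this last condition was adopted after seeing the data, when a summed name rested on a few cells. In all, 107, 107 and 47 cells stayed unnamed.

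Sums per library and class were tested with edgeR 4.0.16 (R 4.3.3; TMM scaling, filterByExpr, library block) over 10494 genes, 7073 for the kinds and 10803 for the mixed library against the PLV pools, with DESeq2 1.42.0 as an alternative. The labels do not pair samples across groups; the block pairs classes of the same library. The test was tried on simulated data with planted changes larger than most differences reported here, which does not show how it fares on smaller ones. CPM is UMIs per 1000000 UMIs of the sum. Depth is given by the summed UMIs. The 2 PLV pools come from separate mice, and the mixed library is 1 sample, so spread over libraries includes digestion and vessel. Members and lists were chosen with earlier results of these data known. Named genes were those of the isoform pairs, the 6 members with the largest log2 difference in each direction among those that passed with the same sign in every library, the 5 most abundant members, at most 3 genes of each pathway list by size, and the 5 genes most like Ndufa4l2; Hif1a, Epas1, Egln3 and Egln1 in endothelial-like cells, Esrra, Ppargc1a, Slc25a4, Idh2, Slc25a5, Pdk1, Rgs5 and Acta2 were named after their values were seen where that rule did not name them. Hashtag counts were not used here.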

Additional observations from a re-analysis of the deposited data

Results flagged for a closer look

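In fibroblast-like cells 6 members were past the threshold for a mixed minus PLV difference unlike that in muscle-like cells, in a test of the difference of differences added after seeing the data. The mixed arm is 1 library with no replicate, and its sums are assumed to vary like the 2 PLV pools do across classes. The SEs and p-values below rest on that assumption and describe these libraries. This was 6 of 76 members, where 2.80% of all genes passed, and 45 members had an unadjusted p under 0.05, as did 13.9% of all genes. The log2 difference of differences (mixed minus PLV in fibroblast-like, minus the same in muscle-like cells) was 3.92 for Ndufa4l2 (SE 0.54, adjusted p = 3.07e-04 by edgeR's quasi-likelihood test), 1.42 for Ndufa1 (SE 0.32, adjusted p = 0.0155), 1.38 for Atp5e (SE 0.31, adjusted p = 0.0146), 1.37 for Ndufa13 (SE 0.31, adjusted p = 0.0167) and 1.23 for Uqcrq (SE 0.33, adjusted p = 0.0463). The fitted 6.39 for Cox4i2 (SE 1.59, adjusted p = 0.0305) rests on PLV fibroblast-like sums with 0 UMIs and is no bound. No member passed in pericyte-like, blood endothelial-like, lymphatic endothelial-like or Schwann-like cells (0 each by edgeR, with 20, 0, 0 and 1 at an unadjusted p under 0.05, where 7.00%, 7.11%, 7.47% and 6.21% of all genes had one). Of all genes 0.0858%, 0.324%, 0.267% and 0.0572% passed in these classes, so a count of 0 members is near the background. Cells were clustered within each library. In the mixed library a cluster led by Col4a4 and Tspan11, whose 5 leading genes led no PLV cluster of the class, held 138 of 277 cells (Ndufa4l2 298.8 CPM). Others shared leading genes between libraries: a mixed cluster of 98 cells led by Cxcl14, C4b, C3 and Inmt was at 116.9 CPM, where a PLV pool 1 cluster of 111 cells led by Inmt and Cxcl14 was at 77.0 CPM and a PLV pool 2 cluster of 73 cells led by C3 and Dpt at 34.2 CPM. A mixed cluster of 41 cells with Sfrp4 and Ccdc80 among its leading genes was at 171.8 CPM, and a PLV pool 1 cluster of 101 cells with both was at 27.3 CPM. The remaining PLV clusters were led by Smpd3 and Pi16 (133 cells of pool 1, 0 UMIs of Ndufa4l2) and by Apod and Smoc2 (41 cells of pool 1 at 22.1 CPM and 14 of pool 2 at 48.2 CPM). Fibroblast markers summed to 46532 and 38363 CPM in the PLV pools and 116125 CPM in the mixed library's fibroblast-like cells, and digestion, vessel and mice differ between these libraries; the part of markers, clusters and these differences was not tested.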

How the results depend on the processing

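Under the 18 alternatives, summed levels and the counts of members that passed stayed within 1 SD or 1.5 times of the reported value except as follows. Thinning each cell to 1500 UMIs left 27 members for muscle-like against fibroblast-like cells, 18 for pericyte-like against muscle-like cells, 2 for the endothelial classes and 0 for the mixed library against the PLV pools. That last count, reported as 2, became 5 when cells needed 1000 UMIs, 0 and 1 when the mitochondrial limit was 10% and 30%, 4 when clustering used resolution 0.5, and 0 by DESeq2; with library totals alone it was 2 again, but as 0 higher and 2 lower members (Ndufa4l2 -0.77, Cox4i2 -0.79), none of them shared. DESeq2 passed 43 members between the kinds, and library totals alone passed 27 for pericyte-like against muscle-like cells. With no replicate block (the library not paired across classes) the counts were 28, 10, 28, 2 and 41 for muscle-like against fibroblast-like, pericyte-like against muscle-like, blood endothelial-like against muscle-like, lymphatic against blood endothelial-like and any difference, and 30 for the kinds. Leaving out 1 library gave 23 to 66, 4 to 50, 27 to 52, 2 to 5, 39 to 71 and 36 to 62 members in the same order. The Cox4i2 share in the Pln/Sorbs2 kind was 8.94% with at least 1000 UMIs, 8.90% with doublets kept and 6.62% after thinning, and the Ndufa4l2 share there was 28.6% with doublets kept; the cause was not tested in any of these. For single genes, 1448 of 1636 values kept their side of the threshold and 188 lost it. No pericyte-like class was found in PLV pool 1 at resolution 0.5 or at mitochondrial limits of 10% and 30%, and leaving out a PLV pool left the mixed library comparison no residual degrees of freedom. Some isoforms had few UMIs, and the comparisons rest on 3 libraries. The part of this in what passed was not tested.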
